A study of Mus musculus with 2 samples.

Results

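Macrophages of injured mouse muscle that carried transcripts of both Spp1 and Gpnmb were described here. They were chosen by measured values: a cell of the injured muscle counted as a member if it held at least 200 genes, at most 20% of its unique molecular identifiers (UMIs, each standing for 1 captured transcript) from mitochondrial genes, at least 3 UMIs of Csf1r, Cd68 and Adgre1 summed, at least 2 UMIs of Gpnmb, at least 10 UMIs of Spp1, and none of Cdh5 and Pdgfra. The rule found 138 cells. They were 5.20% (95% interval 4.39 to 6.12) of the 2653 injured cells that passed the 2 cell filters and the Csf1r, Cd68, Adgre1, Cdh5 and Pdgfra conditions, called macrophages from here on, and 3.12% of the 4421 injured cells kept. The other 2515 injured macrophages are the main group they were set against. In uninjured muscle 70 cells passed the same macrophage conditions and 0 of them were members, which allows a share of up to 4.29% when 0 is read as fewer than 3 cells. Both libraries together held 10070 barcodes.

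Spp1 encodes osteopontin, a secreted, phosphorylated glycoprotein that binds integrins and CD44 and acts in cell adhesion, mineralised matrix and wound repair. Gpnmb encodes a transmembrane glycoprotein of melanosomes and lysosomes, and its transcript is a known target of the MiT/TFE factors, which control lysosomal genes. Macrophages that carry both have been described in injured or fibrotic tissue and in tissue that holds much lipid or cell debris. In muscle, monocytes enter after fibre damage, become macrophages, take up dead fibres and release factors that act on the stem cells and fibroblasts of the tissue.

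The injured group was the tibialis anterior of the C57B/6 strain at 12 weeks of age, taken 24 hours after barium chloride (1.2%) was injected into the muscle, which makes its fibres degenerate. The uninjured group was the same muscle, strain and age. Since the same treatment wording stands on both labels, the sources used here do not say whether the control muscle was injected, nor how many animals a library held. Each group was 1 library of cells freed by protease digestion and captured in droplets, with counts from the 3' ends of transcripts.

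The injured library held 4489 barcodes and 39014762 UMIs (median 7282 per barcode), and the uninjured library 5581 barcodes and 22994502 UMIs (median 3237). Of these barcodes, 33 occurred in both libraries, 1 of them a member's. Members held 1216475 UMIs in all, 8559 per cell at the median (4949 to 14944), against a median of 7229 (3334 to 23430) in the other injured macrophages and 3879 (1952 to 14855) in the uninjured ones. Members had a median of 2223.5 genes and 2.67% mitochondrial UMIs, and other injured macrophages 1999 genes and 2.93%. Since the rule counted raw UMIs, it took deeper cells more readily. With 1 library per group and members chosen on their own transcripts, no difference had a replicate check and no p-value was made; levels are summed UMIs per 1000000 UMIs (CPM), and all intervals are exact 95% intervals that cover counting error only.

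The macrophage identity was read from marker lists. Of its 12 macrophage markers, Csf1r, Cd68 and Adgre1 were used to choose the cells. The other 9 were all found in members, and their summed level was 22763 CPM in members, 21996 CPM in other injured macrophages, 17062 CPM in uninjured ones and 299.7 CPM in endothelial cells of the injured library. In single members the list of 12 ran between 59.0 and 579 per 10000 UMIs, with a median of 235. No UMI of the 6 T and NK cell markers was found in members. The 8 dendritic cell markers summed to 1.64 CPM in members, all from Cd209a, and 57.2 CPM in other injured macrophages, and in members Flt3, Zbtb46, Xcr1 and Clec9a were at 0. Neutrophil markers were at 493 CPM in members and 467 CPM in other injured macrophages. In members 7 of 10 were found, with Ly6g, Camp and Ngp at 0. At least 10 UMIs of S100a8 and S100a9 summed were found in 4 members and 86 other macrophages. Flt3 and Cd209a summed to at least 2 UMIs in 0 members and 96 other macrophages, and these cells stayed in the groups. Muscle fibre transcripts were at 113 CPM in members and 290 CPM in other injured macrophages, and haemoglobin genes with Alas2 at 1038 and 1656 CPM in the same order. These sums lean on few cells. The medians of single cells were 1.04 and 1.05 per 10000 UMIs for muscle fibre transcripts, and 0.79 and 0 for haemoglobin genes with Alas2. Haemoglobin genes with Alas2 made up over 1% of the UMIs in 1 member and 14 other macrophages. Without Cdh5 and Pdgfra, which the conditions set to 0, the 7 remaining endothelial markers were at 23.8 CPM in members and 23.9 CPM in other macrophages, and the 7 remaining fibro-adipogenic markers at 240 CPM in members and 216 CPM in other macrophages. None of the members, and 65 of the other macrophages, were among the 161 injured barcodes with the highest doublet scores.

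The transcripts used by the rule were spread over a wide range among members. Spp1 (chr5:104435111-104441053, ENSMUSG00000029304) was counted at 10 to 1108 UMIs per member, with a median of 39.5 and quartiles of 18.25 and 160, and 45 members had over 100. Gpnmb (chr6:49036518-49058182, ENSMUSG00000029816) was counted at 2 to 45 UMIs with a median of 5. The 14 members with the most Spp1 held 45.6% of the members' Spp1 UMIs, so the summed level leans on few cells. As a description of what was selected, the members held 32.6% of the Spp1 UMIs and 51.0% of the Gpnmb UMIs of all injured macrophages. Near the limits, 13 members had 10 to 12 Spp1 UMIs, and 19 cells with enough Gpnmb lay just outside at 7 to 9. A total of 33 members had exactly 2 Gpnmb UMIs, and 71 cells with enough Spp1 had 1. Gene positions are from RefSeq on GRCm38.p6, the build named mm10 in the submitters' processing notes.

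**Figure D1:**
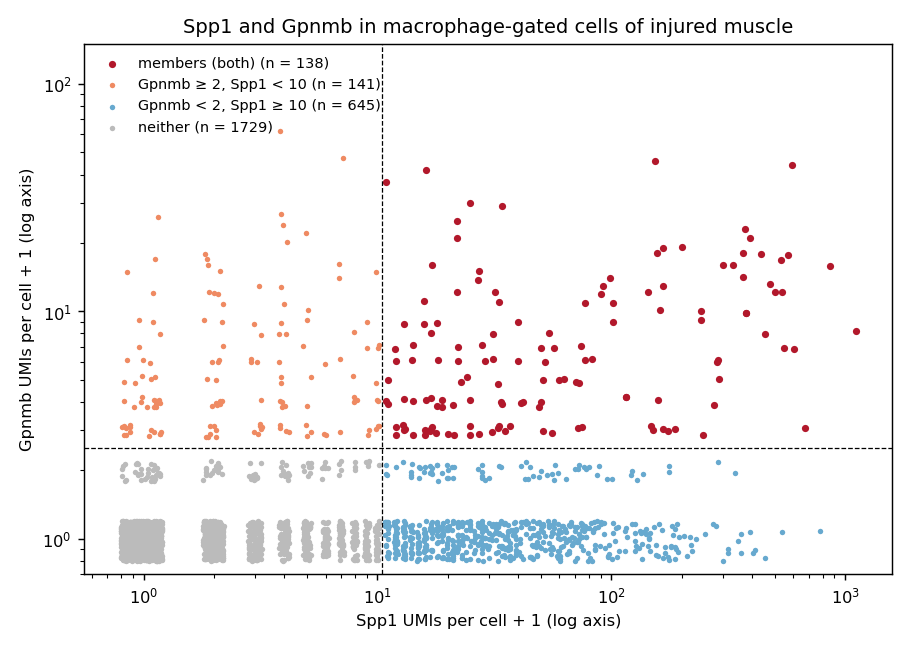
Spp1 (x axis) and Gpnmb (y axis) UMIs per cell plus 1, both on log axes, for the 2653 macrophages of injured muscle, 1 point per cell with a small offset. Dashed lines mark the limits of the rule; the 138 members lie at the upper right, 141 cells pass only the Gpnmb limit, 645 only the Spp1 limit and 1729 neither.

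Droplets can hold free transcripts, and Spp1 was also found in cells gated as endothelial or fibro-adipogenic. The highest count in a single cell was 30 UMIs in the endothelial and 154 UMIs in the fibro-adipogenic cells. Whether these UMIs were free transcripts, the cells' own or from doublets was not tested. Of 409 endothelial cells (Cdh5 at 2 UMIs or more, median depth 6409 UMIs), 17.4% had a Spp1 UMI and 2 reached 10. Of 227 fibro-adipogenic cells (Pdgfra at 2 or more, median depth 15394), 34.8% had a Spp1 UMI and 4 reached 10. For Gpnmb, 0 endothelial cells and 8 fibro-adipogenic cells reached 2 UMIs. After thinning every cell to the UMI total of the shallowest injured barcode, a Spp1 UMI was left in 100% of members, 52.3% of other macrophages, 9.05% of endothelial cells and 12.8% of fibro-adipogenic cells. The share of members was all but fixed by the rule, which asked for at least 10 Spp1 UMIs, so it is no result about them.

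Since Gpnmb and many lysosomal genes share the MiT/TFE factors as known regulators, the start regions of both rule genes are shown beside those of Ctsd and Acp5, which encode a lysosomal protease and phosphatase whose levels are given with the lysosomal genes. The 250 bases before their RefSeq start sites (GRCm38.p6) were searched on both strands for 5 motifs. These were the E-box CACGTG, which MiT/TFE factors bind, the M-box TCATGTG, the AP-1 site TGANTCA, the antioxidant response element TGACNNNGC and the PU.1 site GAGGAAGT. Matches are in capitals, and each run is read 5' to 3' on the gene's own strand.
Spp1, first start site, chr5:104434861-104435110, plus strand: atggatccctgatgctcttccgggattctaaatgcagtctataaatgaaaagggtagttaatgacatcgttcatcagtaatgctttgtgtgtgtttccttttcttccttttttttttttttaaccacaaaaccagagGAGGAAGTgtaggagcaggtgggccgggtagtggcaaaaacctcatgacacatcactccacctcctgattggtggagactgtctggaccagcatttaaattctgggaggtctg
Gpnmb, chr6:49036268-49036517, plus strand: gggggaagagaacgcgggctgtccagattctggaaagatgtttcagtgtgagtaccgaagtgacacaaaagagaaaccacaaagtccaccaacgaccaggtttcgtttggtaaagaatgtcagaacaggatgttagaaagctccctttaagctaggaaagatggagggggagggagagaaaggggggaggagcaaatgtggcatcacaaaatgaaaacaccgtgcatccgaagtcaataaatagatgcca
Ctsd, chr7:142387828-142388077, minus strand: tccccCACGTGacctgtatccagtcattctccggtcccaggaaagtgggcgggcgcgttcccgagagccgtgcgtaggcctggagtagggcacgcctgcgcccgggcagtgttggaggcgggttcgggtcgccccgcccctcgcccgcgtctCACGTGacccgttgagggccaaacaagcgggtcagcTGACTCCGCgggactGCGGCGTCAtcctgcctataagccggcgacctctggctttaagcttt
Acp5, the third start site, chr9:22130599-22130848, minus strand: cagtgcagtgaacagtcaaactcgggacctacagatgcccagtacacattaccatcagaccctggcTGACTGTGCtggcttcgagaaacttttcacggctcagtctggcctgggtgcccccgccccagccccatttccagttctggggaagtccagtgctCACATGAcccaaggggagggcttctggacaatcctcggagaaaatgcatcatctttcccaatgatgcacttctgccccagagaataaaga

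The Spp1 stretch held the PU.1 letters at bases -113 to -106 from the start site, and the Gpnmb stretch held none of the 5 motifs. The Ctsd stretch held the E-box at -245 to -240 and at -98 to -93, and the antioxidant motif at -62 to -54 and at -47 to -39. The Acp5 stretch held the M-box at -90 to -84 and the antioxidant motif at -184 to -176. Over 32851 promoters of the same length, the E-box was in 6.02%, the M-box in 3.25%, the AP-1 site in 6.75%, the antioxidant motif in 10.2% and the PU.1 site in 2.44%. The E-box and M-box differ in their letters, and the AP-1 and antioxidant motifs can overlap. The second Spp1 start site and the first and the second Acp5 start sites held none, and Ctsd and the third Acp5 site are shown because they held matches. Of 24 genes looked up, 18 had an entry, with 23 start sites in all; 18 of these sites held none of the 5 motifs, and 13 of the 18 genes held none at any site, Ctsk, Cd63, Lgals3, Syngr1, Cd9 and F7 among them. A match is a run of letters and was not tested as a site.

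The label of these cells also names Arg1, Hmox1, Syngr1 and Gdf15, which the rule did not use. At least 1 of the 4 was found in 135 of 138 members (97.8%), against 74.4% of other injured macrophages. At least 2 were found in 82.6% of members and 41.7% of other macrophages, and all 4 in 7 members (5.07%) and 25 other macrophages (0.994%). Most members thus held at least 2 of the 4 genes and few held all 4, while at least 1 was also common in other macrophages. These shares were not taken at equal depth, and members were deeper, with a median of 8559 UMIs against 7229. The label was chosen with earlier results of these data known, so the shares describe it and are no independent support.

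Hmox1, haem oxygenase 1, which breaks haem down to biliverdin, iron and carbon monoxide (chr8:75093618-75100593), was counted at 0 to 207 UMIs per member with a median of 4, against a median of 1 in other macrophages (highest 199). Its level was 1088 CPM in members and 443 CPM in other macrophages, 2.46-fold (95% interval 2.32 to 2.61) higher in members. The ranges of single cells overlapped almost entirely, and 1 member held 15.6% of the members' Hmox1 UMIs. A Hmox1 UMI was found in 87.7% of members and 61.1% of other macrophages, and at equal depth, with every cell thinned to the total of the shallowest injured barcode, in 70.3% and 42.9%.

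Syngr1, a vesicle membrane protein best known from synapses (chr15:80091334-80119501), had the largest ratio of the 4. It was counted at 0 to 18 UMIs per member (median 0, upper quartile 2), against at most 17 in other macrophages, whose upper quartile was 0. Its level was 196 CPM in members and 37.2 CPM in other macrophages, 5.28-fold (4.54 to 6.13) higher in members. It was found in 48.6% of members and 13.1% of other macrophages, and in 33.3% and 7.0% after thinning. The summed ratio thus goes with a higher share of cells at equal depth.

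Gdf15, a stress-induced cytokine of the TGF-beta family (chr8:70629393-70632470), was counted at 0 to 16 UMIs per member, and 104 of the 138 had none. Its level was 80.6 CPM in members and 36.6 CPM in other macrophages, 2.2-fold (1.76 to 2.72) higher in members, and the 14 members with the most held 71.4% of its UMIs. When every cell was thinned before the rule was applied, its log2 ratio of 1.14 became 0.76.

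Arg1, arginase 1, which turns arginine to ornithine and urea (chr10:24915207-24927470), differed least. Members had 0 to 68 UMIs with a median of 3, and other macrophages 0 to 160 with a median of 0. Its level was 1064 CPM in members and 757 CPM in other macrophages, 1.4-fold (1.33 to 1.49) higher in members, and was thus under the 2-fold limit used for calls. An Arg1 UMI was found in 64.5% of members and 43.2% of other macrophages (57.2% and 36.1% after thinning), while 37 members (26.8%) and 438 other macrophages (17.4%) had 10 or more.

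**Figure D2:**
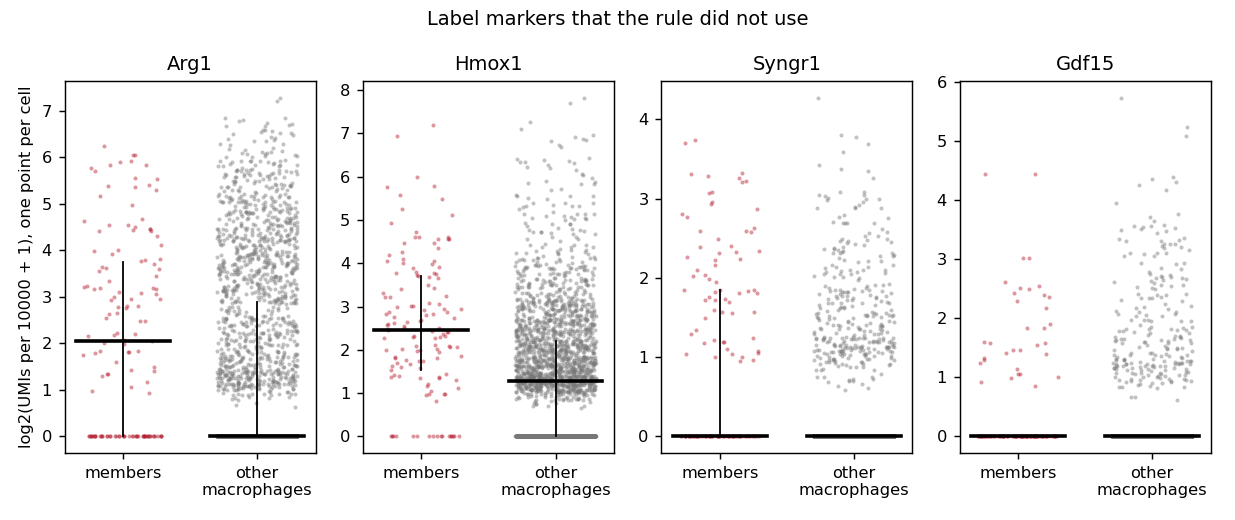
Levels of Arg1, Hmox1, Syngr1 and Gdf15 as log2(UMIs per 10000 + 1) on the y axis, 1 point per cell, for 138 members (left) and 2515 other injured macrophages (right); thick lines are medians and thin lines quartiles. The ranges overlap for every gene, the medians of Arg1 and Hmox1 are higher in members, and those of Syngr1 and Gdf15 are 0 in both groups.

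The limits on Spp1 and Gpnmb divide the injured macrophages into 4 classes, and members were set beside the cells that met only 1 limit or neither. Hmox1 was at 1088 CPM in members, 1039.9 CPM in the 141 cells with Gpnmb but under 10 Spp1 UMIs, 635 CPM in the 645 cells with Spp1 but under 2 Gpnmb UMIs, and 303 CPM in the 1729 cells with neither. Gdf15 was highest in the Gpnmb-only cells, at 117 CPM against 80.6 CPM in members, 21.1 CPM in Spp1-only cells and 36.1 CPM in cells with neither. Arg1 was highest in the Spp1-only cells, at 1391 CPM against 1064 CPM in members, 671 CPM in Gpnmb-only cells and 487 CPM in cells with neither. The Arg1 level of members was 1.59-fold (1.45 to 1.74) that of Gpnmb-only cells and 0.765-fold (0.721 to 0.811) that of Spp1-only cells. Syngr1 was highest in members, at 196 CPM, with 125 CPM in Gpnmb-only, 55.8 CPM in Spp1-only and 21 CPM in the remaining cells.

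Genes of lysosomes and iron storage, and Lgals3, also had close levels in members and Gpnmb-only cells. Psap, the precursor of the saposins that help lysosomal enzymes digest lipids, was at 4703 CPM in members, 4816 CPM in Gpnmb-only, 2179 CPM in Spp1-only and 2038 CPM in cells with neither. Lgals3, galectin-3, was at 8872, 8033, 4193 and 3565 CPM in the same order, and Fth1, the ferritin heavy chain, at 26926, 28372, 13234 and 11109 CPM. Ctsd was at 5467, 5065, 3352 and 2231 CPM. Over these 4 genes the ratio of members to Gpnmb-only cells lay between 0.949 for Fth1 and 1.10 for Lgals3.

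Other genes were highest in members. Cd9, a tetraspanin of the cell surface, was at 651 CPM in members and at 222, 198 and 93.2 CPM in Gpnmb-only, Spp1-only and remaining cells, which put members 2.93-fold (2.54 to 3.39) above the Gpnmb-only and 3.29-fold (3.0 to 3.61) above the Spp1-only cells. Fabp4 was at 354 CPM in members and at 149.8, 49.4 and 41.5 CPM in the same other classes. F7, coagulation factor VII, was at 84.7, 40.9, 18.9 and 9.42 CPM, and Fabp5 at 4081, 2799, 1344 and 804 CPM. Atp6v0d2, a proton pump subunit known from osteoclasts, was at 32.1 CPM in members and at 4.35, 2.0 and 1.92 CPM elsewhere, though on only 39 UMIs in members. Igf1, insulin-like growth factor 1, was lower in members (65.8 CPM) than in Gpnmb-only cells (116 CPM) and higher than in Spp1-only cells (14.9 CPM).

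The lysosomal list was close to the Gpnmb-only cells too. Over the Gpnmb-only cells, 0 of 31 lysosomal genes were 2-fold higher in members, against 2.22% of the 6402 genes measured, and the median log2 ratio was 0.11; over the Spp1-only cells 5 of 31 were, against 2.88% of 8478 genes, and the median was 0.50. For 20 genes of lipid handling the counts were 2 over the Gpnmb-only cells (Fabp4 and Cd9, median 0.15) and 6 over the Spp1-only cells (median 0.68). Class II genes were 2-fold lower in members for 4 of 6 over the Gpnmb-only cells (median -1.57), against 2.59% of all genes, and for 3 of 6 over the Spp1-only cells (median -1.03), against 3.33%, so members were not closer to the Gpnmb-only cells in this list. Both comparisons share the members, and their difference was not tested.

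**Figure D3:**
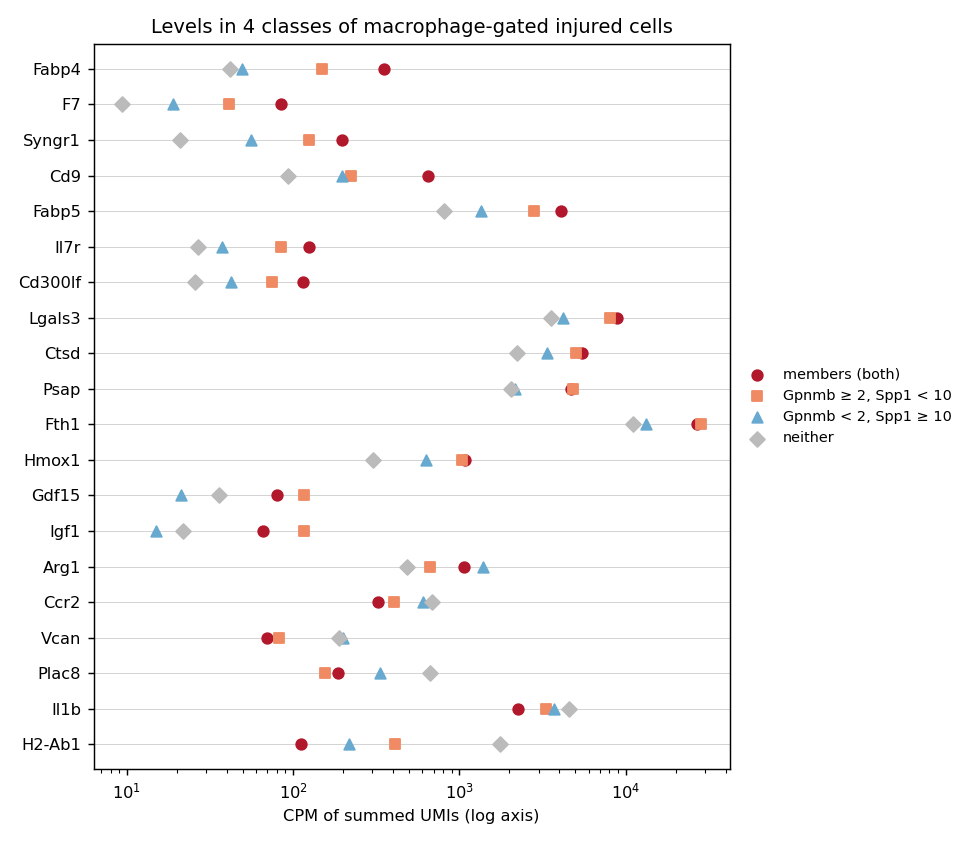
CPM of summed UMIs (x axis, log) of 20 genes (rows) in the 4 classes of injured macrophages; circles are members, squares Gpnmb-only, triangles Spp1-only and diamonds cells with neither. Members and Gpnmb-only cells lie close for Psap, Ctsd, Fth1, Hmox1 and Lgals3, members stand above the other 3 classes for Fabp4, F7, Syngr1 and Cd9, and Arg1 is highest in Spp1-only cells.

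Across all genes with at least 20 UMIs in both groups together, 420 of 10258 were at least 2-fold higher in members than in other injured macrophages, 4.09%, and 417 were at least 2-fold lower, 4.07%. The median log2 ratio over these genes was 0.00. Calls are by size alone. A list of genes is described by how many of its measured genes passed 2-fold and by its median log2 ratio, members over other macrophages, to be read against these shares. Medians between -0.3 and 0.3 give no firm direction, since 8 of 17 such lists kept their sign under every alternative tried.

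Apart from the rule's own genes, the largest ratios among abundant genes were those of Fabp4, F7, Syngr1, Cd9 and Fabp5. Fabp4, a fatty acid carrier of fat cells, macrophages and capillaries (chr3:10204342-10208616), was at 354 CPM in members and 50.3 CPM in other macrophages, a ratio of 7.05-fold (6.28 to 7.9); it was found in 38.4% of members and 18.1% of others, and 1 member held 14.6% of its UMIs. Endothelial cells of the same library had 4708 CPM, and the part of free transcript in the members' level was not tested; both macrophage groups come from the injured library. F7 (chr8:13025506-13035809) was 6.04-fold (4.76 to 7.6) higher and Cd9 (chr6:125460266-125494760) 4.97-fold (4.58 to 5.39) higher. Cd9 was counted at 0 to 47 UMIs per member with a median of 3, against a median of 0 and at most 26 in other macrophages. Fabp5, the epidermal fatty acid carrier, was counted at 0 to 194 UMIs with a median of 23.5 in members and at 0 to 217 with a median of 2 in others, and was 3.78-fold (3.67 to 3.9) higher.

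The next were the interleukin 7 receptor Il7r at a ratio of 3.76-fold (3.13 to 4.49), the tetraspan protein gene Lhfpl2 at a ratio of 3.47-fold (2.91 to 4.12), and Cd300lf, a receptor for phosphatidylserine on dead cells, at a ratio of 3.41-fold (2.82 to 4.11). Tnfsf12, the cytokine TWEAK, whose locus also gives a read-through transcript with Tnfsf13 so that its counts are uncertain, was 3.28-fold higher. Gde1, a phosphodiesterase of glycerophospholipids, was 2.99-fold, Fam20c, the kinase that phosphorylates osteopontin and other secreted proteins, 2.54-fold, and the stress-responsive kinase Plk2 2.52-fold higher. Each of these was found in 39.9% to 69.6% of members.

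The list of lysosomal enzymes and membrane proteins, which degrade what macrophages engulf, lay on the higher side for nearly all genes. Of 31 measured, 7 were at least 2-fold higher in members (22.6%) and 0 lower, 30 were above 0, and the median log2 ratio was 0.62. Ctsk, cathepsin K, a protease known from osteoclasts, was at 60.0 CPM in members and 7.46 CPM in other macrophages, 8.05-fold (5.99 to 10.7) higher. Acp5, the tartrate-resistant phosphatase whose start region is shown above, was 2.57-fold (2.04 to 3.21) higher, and Gaa, the acid glucosidase, 2.4-fold. Lipa, the lysosomal acid lipase, was at 203 CPM in members and 92.6 CPM in other macrophages, Cd63 at 1302 CPM in members and 577 CPM in other macrophages, and Psap and Ctsd were 2.1-fold and 2.01-fold higher; these 4 lay close to the 2-fold limit. In single cells Ctsd ran between 10 and 158 UMIs with a median of 44 in members, against a median of 16 in other macrophages. Cathepsins were not all alike: Ctsb (1.96-fold), Ctsl (1.85-fold) and Ctss (1.77-fold) were below 2-fold, and Ctsc, which activates serine proteases of granules, was at 612 CPM in members and 1079 CPM in other macrophages, 1.76-fold (1.64 to 1.9) lower.

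The vacuolar proton pump, which acidifies lysosomes, was measured in 16 subunits. Atp6v0d2 was 15.4-fold (9.63 to 24.5) higher and no subunit was 2-fold lower; the median over the subunits was 0.39 (log2). Atp6v1a was close to the limit at 257 CPM in members and 129 CPM in other macrophages. Of the 4 MiT/TFE factors none reached 2-fold and the median was 0.37; Mitf was at 60.0 CPM in members and 34.6 CPM in other macrophages, 1.74-fold (1.34 to 2.21) higher, and Tfe3 at 39.5 CPM in members and 38.3 CPM in other macrophages, a ratio of 1.03-fold (0.753 to 1.38).

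The list for lipid uptake, storage and efflux had the highest median of the 27 lists, 0.81 on the log2 scale, with 6 of 20 measured genes 2-fold higher and 2 lower. Fabp4, Fabp5, Cd9, Lgals3, the cholesterol exporter Abcg1 at a ratio of 2.35-fold (1.32 to 3.93) and the cholesterol ester hydrolase Nceh1 at a ratio of 2.23-fold (1.95 to 2.55) were higher. Trem2, a lipid-binding receptor of macrophages, was at 387 CPM in members and 218 CPM in other macrophages, 1.78-fold higher, Apoe at 4910.1 CPM in members and 2657 CPM in other macrophages, and the lipid droplet coat protein gene Plin2 at 991 CPM in members and 596 CPM in other macrophages; all 3 were under 2-fold. The desaturase Scd2 was 2.07-fold (1.17 to 4.04) lower. Several of the higher genes bind or export lipid or split its esters, and Scd2 makes unsaturated fatty acids.

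Haem and iron genes, which handle the cargo of engulfed myoglobin and haemoglobin, were 2-fold higher for 4 of 17 genes (23.5%) and lower for 1, with a median of 0.46. Beside Hmox1, Fth1 was at 26926 CPM in members and 12752 CPM in other macrophages, 2.11-fold (2.09 to 2.14) higher, and Ftl1, the ferritin light chain, at 38930.5 CPM in members and 22709 CPM in other macrophages, 1.71-fold; both ferritin genes have near-identical processed copies in the genome, so their counts are uncertain. The other 2 higher genes, Ncoa4 and Spic, rested on 3 and 6 UMIs in members, with intervals that include equal levels. Cd163, the receptor for haemoglobin bound to haptoglobin, had 3 UMIs in members, and Slc40a1, the iron exporter, had 0 UMIs in members and 1.41 CPM in other macrophages. Of 22 glutathione and thioredoxin genes, Gclm, which limits glutathione synthesis, was 2.26-fold (1.72 to 2.92) higher and the glutathione reductase Gsr 2.13-fold (1.66 to 2.77) lower, with a median of 0.24.

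Growth factors were 2-fold higher for 5 of 19 genes (26.3%) and lower for 1, with a median of 0.46. Inhba, a subunit of activin A, was at 23.8 CPM in members and 6.0 CPM in other macrophages, 3.98-fold (2.55 to 6.02) higher, Csf1, the growth factor of macrophages, 3.04-fold (1.94 to 4.61), and Igf1, which promotes muscle growth, 2.58-fold (2.01 to 3.28). Gdf15 was the fourth, and Vegfb rested on 4 UMIs in members with an interval that includes equal levels. The epidermal growth factor receptor ligand Areg was 2.18-fold (1.66 to 2.92) lower, and 1 member held 50.9% of the members' UMIs. Tgfb1 was at 287 CPM in members and 299.8 CPM in other macrophages, a ratio of 0.957-fold (0.857 to 1.07).

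The 20 proteases and matrix genes had a median of 0.19, with 3 past 2-fold on the higher side and 2 on the lower. Sdc1, the heparan sulphate proteoglycan syndecan 1, was at 49.3 CPM in members and 14.4 CPM in other macrophages, 3.41-fold (2.54 to 4.53) higher, and the protease inhibitor Timp2 2.21-fold (1.71 to 2.82) higher, while 1 member held 55.6% of the UMIs of Mmp13, the third. Vcan, a large matrix proteoglycan of monocytes, was at 69.9 CPM in members and 185 CPM in other macrophages, 2.65-fold (2.14 to 3.32) lower, and Sparc 2.0-fold lower. Fn1, fibronectin, was at 1610.4 CPM in members and 1679 CPM in other macrophages and Thbs1, thrombospondin 1, at 1562 CPM in members and 1059 CPM in other macrophages. Of 17 genes for the clearance of dead cells, Cd300lf was higher and the bridging protein gene Mfge8, on 1 UMI in members, lower, with a median of 0.41; Mertk, the receptor kinase for this uptake, was 1.95-fold (1.14 to 3.14) higher. Of 8 genes for receptors of osteopontin none reached 2-fold in either direction (median -0.11), and Cd44 was at 588 CPM in members and 683 CPM in other macrophages.

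Class II antigen presentation was lower in members, at 2-fold for 7 of 10 genes against 0 higher, and the median over the list was -2.38 (log2). H2-Ab1 was at 111 CPM in members and 1243 CPM in other macrophages, 11.2-fold (9.46 to 13.4) lower, H2-Aa 12.6-fold (10.4 to 15.4) lower, H2-Eb1 15-fold (11.8 to 19.4) lower and the invariant chain Cd74 6.06-fold (5.59 to 6.59) lower. H2-Ab1 was found in 17.4% of members and 32.4% of others, so most cells of both groups had none. Single members carried much of what there was, since 1 member held 43.7% of the H2-Ab1 UMIs and 52.3% of those of H2-Eb1 came from 1 member. When cells with 20 or more UMIs of H2-Aa, H2-Ab1 and H2-Eb1 summed were left out of both groups (3 members and 384 others), the median was -0.81. The log2 ratios of H2-Aa, Cd74 and H2-DMb1 were then -0.92, -0.58 and -0.71, under 2-fold, and those of H2-Ab1 and H2-Eb1 -1.13 and -1.10. H2-DMb1, 8.29-fold (5.83 to 12.2) lower, and H2-DMb2 are near-identical copies and uncertain. Class I genes did not reach 2-fold in either direction for any of 12, with a median of 0.18.

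Of 15 genes of newly arrived monocytes, 0 were 2-fold higher and 6 were 2-fold lower. The median of -0.29 lay within the band that gives no firm direction, and ranged between -0.51 and -0.19 under the alternatives. Ifitm6 was at 17.3 CPM in members and 130.4 CPM in other macrophages, 7.55-fold (4.93 to 12.2) lower, Plac8 at 187 CPM in members and 538 CPM in other macrophages, 2.87-fold (2.52 to 3.29) lower, and Ccr2, the receptor that draws monocytes into tissue, at 322 CPM in members and 649 CPM in other macrophages, 2.01-fold (1.82 to 2.23) lower. Hp, haptoglobin, was 2.5-fold lower and Vcan as above. Ly6c2 was at 172 CPM in members and 209.7 CPM in other macrophages, and F10, coagulation factor X, at the upper limit with 444 CPM in members and 222 CPM in other macrophages.

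The lists of resident and alternatively activated macrophages had medians below 0 and genes in both directions. Of 17 resident genes, Igf1 and Ccl8 were 2-fold higher and Lyve1, Cd163 and Trf lower, with a median of -0.29, but 1 member held 77.9% of the Ccl8 UMIs. Of 18 alternative activation genes, Il1rn, the interleukin 1 receptor antagonist, was at 755 CPM in members and 338 CPM in other macrophages, 2.23-fold (2.08 to 2.39) higher, and Pdcd1lg2, on 4 UMIs in members, was the other; Retnla, Mgl2, Clec10a, Ccl17, Cd163 and Ear2 were lower, with a median of -0.47. Retnla, Mgl2, Ccl17 and Lyve1 had 0 UMIs in members, and 9.70, 10.5, 8.40 and 6.47 CPM in other macrophages. Of 12 arginine and polyamine genes, Slc7a2 was higher on 5 UMIs in members and Ass1 and Slc7a1 were lower, with a median of 0.10; Odc1, which makes putrescine from ornithine, was at 316 CPM in members and 345 CPM in other macrophages.

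Chemokines and inflammatory mediators were close in both groups. Of 9 CXC chemokines 0 were higher and Cxcl10 was 2.57-fold (1.9 to 3.57) lower (median -0.18), and Cxcl2, a neutrophil attractant, was at 20116 CPM in members and 16762 CPM in other macrophages, 1.2-fold (1.18 to 1.22) higher. Of 13 CC chemokines, Ccl8 was higher and Ccl5 and Ccl17 lower (median -0.19), and Ccl2, which attracts monocytes, was at 7500.4 CPM in members and 6064 CPM in other macrophages. Of 15 mediators, Ptges was higher on 5 UMIs in members, with an interval that includes equal levels (median -0.03). Il1b was at 2261 CPM in members and 4258 CPM in other macrophages, 1.88-fold (1.81 to 1.96) lower and so under the limit, and Tnf at 685 CPM in members and 467 CPM in other macrophages, 1.47-fold (1.36 to 1.58) higher.

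Interferon-stimulated genes had a median of 0.74 and 4 of 15 at least 2-fold higher, Ifit2, Ifit3, Isg15 and Rsad2, a count that rested on a single cell. The member with the most Ifit2 UMIs held 84.0% of the members' Ifit2, 60.0% of their Ifit3, 47.7% of their Rsad2 and 34.7% of their Isg15 UMIs. Without that 1 cell, 0 of the 15 genes were 2-fold higher, the median was 0.33 and the log2 ratio of Ifit2 was 0.74. Ifitm3 was at 1607 CPM in members and 2216 CPM in other macrophages with that cell included.

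The remaining lists held few genes past 2-fold. Glycolysis and hypoxia genes had 0 of 23 past 2-fold in either direction and a median of 0.00, with the glucose transporter Slc2a1 at 48.5 CPM in members and 41.4 CPM in other macrophages and Ldha at 602 CPM in members and 621 CPM in other macrophages. Oxidative phosphorylation (0 of 15, median 0.01), immediate early genes (0 of 15, median 0.10) and cell cycle genes (0 of 10, median -0.01) had none past 2-fold. Of 18 genes of the integrated stress response, which is known to induce Gdf15, Gdf15 alone was higher, and Sesn2, Ddit4 and Nupr1 were lower (median -0.14). Ddit3 was at 25.5 CPM in members and 26.3 CPM in other macrophages and Atf4 at 274 CPM in members and 295 CPM in other macrophages. Of 12 heat shock genes Hspb1 was lower (median 0.00), and of 7 metallothionein and zinc genes Mt2 was lower (median 0.18).

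**Figure D4:**
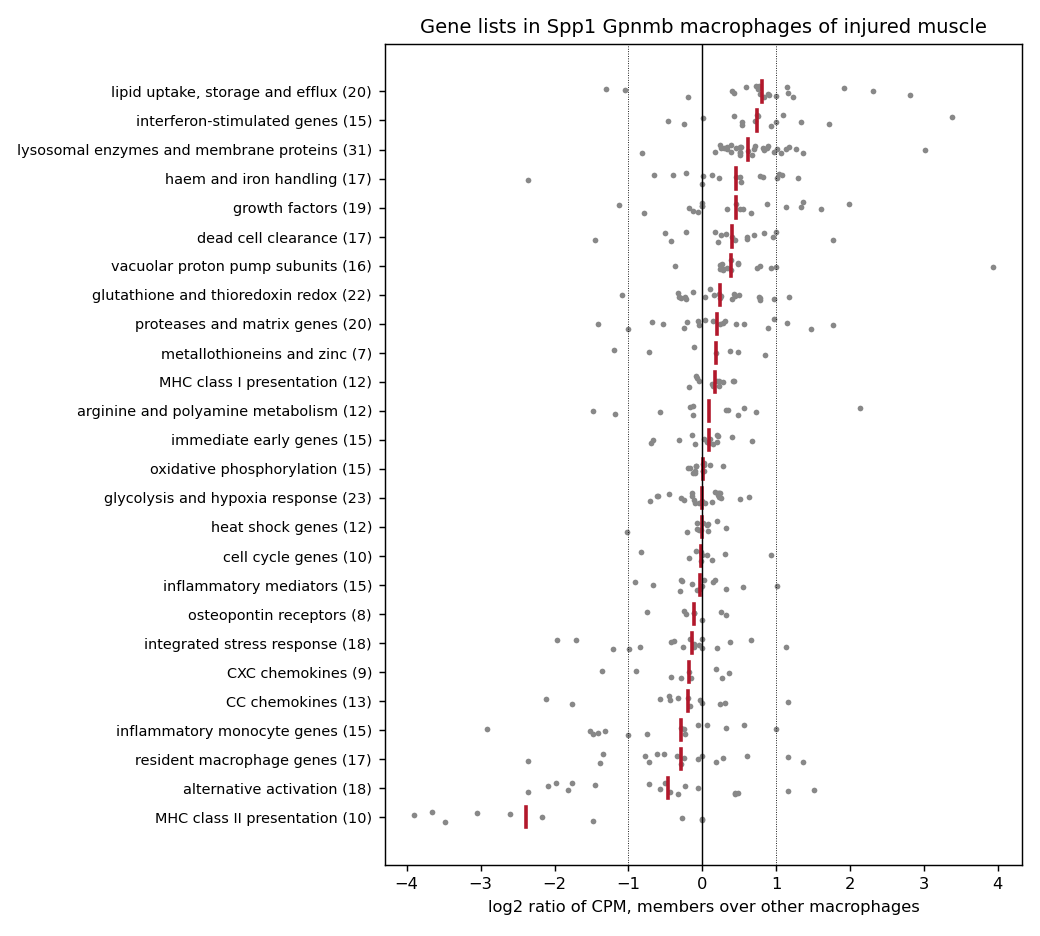
Log2 ratio of CPM, members over other injured macrophages (x axis), for each measured gene (grey points) of 26 gene lists (rows, number measured in brackets), with the list median as a red bar; dotted lines mark 2-fold. The lipid list has a median of 0.81 and the lysosomal list 0.62, the class II list lies lowest at -2.38, and the median of 0.74 of the interferon list includes the single cell described in the text.

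Of the genes outside these lists, the lowest in members were Tmem176b, at 12.3 CPM in members and 55.6 CPM in other macrophages, Cytip, a regulator of leukocyte adhesion, at 37.8 CPM in members and 163 CPM in other macrophages, and Avpi1 at 18.1 CPM in members and 77.5 CPM in other macrophages. Ccnd3, cyclin D3, was 4.2-fold (2.49 to 7.7) lower, the creatine kinase Ckb 3.96-fold (2.65 to 6.21) lower and the lectin-like receptor Klra2 3.85-fold (2.36 to 6.77) lower. All 6 were found in 7.25% to 23.9% of members and in 20.6% to 49.1% of other macrophages. Under the alternatives tried, the log2 ratio ranged between -2.94 and -1.05 for Ckb, -2.39 and -1.10 for Klra2, and -2.47 and -1.37 for Avpi1. It ranged between -2.40 and -1.44 for Ccnd3, -2.43 and -1.57 for Cytip, and -3.27 and -1.78 for Tmem176b.

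Members were next set against 3 other kinds of injured macrophage that did not meet the rule: 385 cells with at least 10 Cxcl3 UMIs, 381 with at least 5 Mrc1 UMIs and 449 with at least 10 UMIs of Ly6c2 and Plac8 summed. These sets overlap, by 89 cells for the Cxcl3 and Mrc1 sets, 32 for Cxcl3 and Ly6c2 with Plac8 and 44 for Mrc1 and Ly6c2 with Plac8. Among members, 24 (17.4%) met the Cxcl3 condition, against 15.3% of other macrophages, 7 (5.07%) the Mrc1 condition, against 15.1%, and 10 (7.25%) the Ly6c2 with Plac8 condition, against 17.9%. The intervals of the members' shares were 11.5% to 24.8%, 2.06% to 10.2% and 3.53% to 12.9%.

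Fabp4, Syngr1, F7 and Cd9 were among the 6 highest ratios in all 3 comparisons. The 3 sets are parts of the other injured macrophages, over which these genes already had the largest ratios, so the comparisons are not separate checks. Syngr1 was at 196 CPM in members, 30.2 CPM in the Cxcl3 set, 26 CPM in the Mrc1 set and 22.1 CPM in the Ly6c2 with Plac8 set. Cd9 was at 651 CPM in members and at 159, 74.1 and 88.7 CPM in the same 3 sets. Fabp5 was at 4081, 1495, 1545 and 584 CPM, which is 6.98-fold (6.62 to 7.37) higher in members than in the Ly6c2 with Plac8 set. Arg1 did not follow them: it was at 1064 CPM in members and at 1656 CPM in the Cxcl3 set, 727 CPM in the Mrc1 set and 469 CPM in the Ly6c2 with Plac8 set. Hmox1 was at 1088, 775, 527 and 269 CPM in the same order.

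What was lower in members differed by set. Against the Cxcl3 set, beside Cxcl3 itself, the aryl hydrocarbon receptor gene Ahr was 4.05-fold (2.24 to 8.03) lower, the neutrophil growth factor gene Csf3 2.99-fold (2.17 to 4.21), Vcan 2.87-fold (2.29 to 3.65) and the eosinophil attractant gene Ccl24 2.87-fold (2.43 to 3.42) lower. Against the Mrc1 set, beside Mrc1, the gap junction gene Gja1 was 5.91-fold (3.62 to 10.3) lower, and Stxbp6, Fcgrt, H2-Aa and H2-Ab1 were among the 6 lowest; over all genes the median log2 ratio in this comparison was -0.12. Against the Ly6c2 with Plac8 set, beside Plac8, Ifitm6 was 27.2-fold (17.7 to 44.1) lower, Tspan13 11.8-fold (5.65 to 29.8) and the phospholipase Plcb1 11.5-fold (4.83 to 36) lower. The genes that define a set are higher in it by choice.

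**Figure D5:**
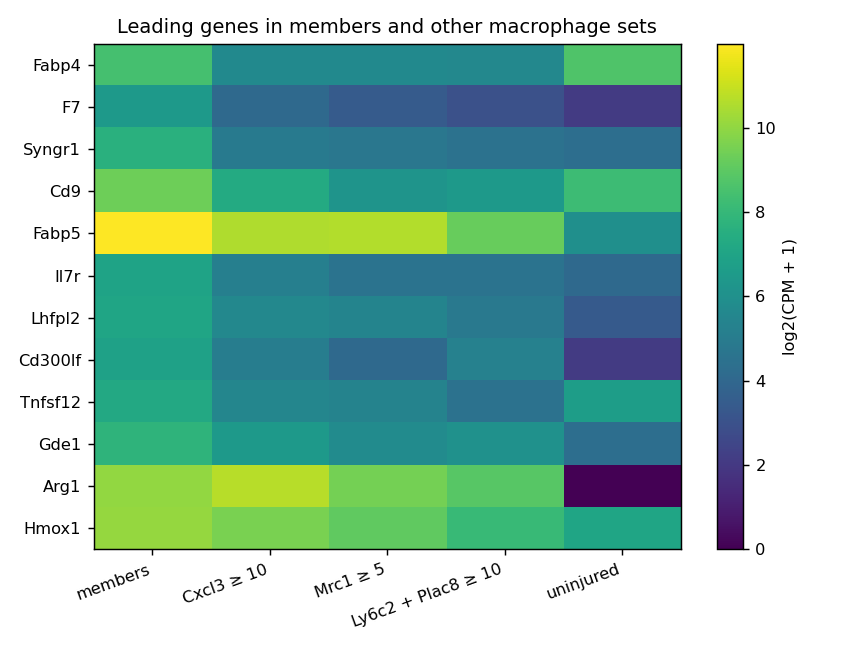
Log2(CPM + 1) as colour for 12 genes (rows) in members (left column), 3 other sets of injured macrophages and uninjured macrophages (right column). Within its row Fabp5 is brightest in members, Arg1 brightest in the Cxcl3 set and at 0 in uninjured macrophages, and Fabp4 at a close level in members and uninjured macrophages.

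Members also differed among themselves. Across the 138 cells, with each gene taken per UMI of its cell, Gpnmb had a Spearman rho of 0.53 with Psap, 0.50 with Lgals3, 0.44 with Cd9 and -0.46 with Ctsc. Spp1 had 0.46 with Cd9 and 0.31 with Gpnmb. Arg1 had 0.49 with Pf4, a chemokine of platelets and macrophages, and Hmox1 had 0.37 with Gde1 and 0.34 with Fth1. Cd9 had 0.55 with Lgals3 and -0.45 with Sepp1. The values above were picked as larger ones, and many values of Spp1 lay near 0, such as 0.06 with Fabp5 and 0.03 with Hmox1. Spp1 and Gpnmb were both cut by the rule. The cells share 1 library and the divisor of both measures, so these values describe the members, and they carry no p.

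Likeness over many genes was looked at with the genes of the rule left out. Among the 15 nearest injured macrophages of each member, a mean of 3.34 were members (22.3%), against 0.644 (4.30%) around other macrophages. Of the 138 members, 23 had no member among their neighbours. The mean share of members around a member was above their share of 5.20% among injured macrophages.

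Set against the 70 macrophages of uninjured muscle, members differed at 2-fold in many genes in either direction. Of 5672 genes with at least 20 UMIs over both groups, 856 were 2-fold higher in members (15.1%) and 926 lower (16.3%), and the median over all of them was 0.03 on the log2 scale. These uninjured cells held 310623 UMIs in all, and members 1216475. Raising low counts to 3 thus limited calls of higher genes more than calls of lower ones. The near balance of the counts is therefore no result about the cells. Fibro-adipogenic markers were at 240 CPM in members and 4626 CPM in the uninjured cells. Xist, the transcript of the inactive X chromosome, had 0 UMIs in members and 297 in the uninjured cells, so animals of different sex cannot be told apart from injury here. Counts below describe the 2 libraries, not the conditions.

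Most measured chemokine and mediator genes, and some genes of other lists such as Arg1, Fabp5 and Hmox1, were higher in members. Arg1 had 0 UMIs in uninjured macrophages, so with 0 read as 3 UMIs it was at least 110.1-fold higher in members, and Clec4d, a lectin receptor of myeloid cells, at least 88.9-fold higher. Fabp5 was at 4081 CPM in members and 61.2 CPM in uninjured macrophages, 66.7-fold (42.7 to 111) higher. The chemokine Cxcl1 was at 2476 CPM in members and 9.66 CPM in uninjured macrophages on 3 UMIs, a ratio of 256-fold (87.6 to 1244), and Cxcl3 was at 569.7 CPM in members and 3.22 CPM in uninjured macrophages on 1 UMI. The chitinase-like gene Chil3 was at 898 CPM in members and 12.9 CPM in uninjured macrophages, 69.8-fold (27.2 to 257) higher. Hmox1 was at 1088 CPM in members and 132 CPM in uninjured macrophages, 8.25-fold (6.04 to 11.5) higher. By list, 4 of 7 CXC chemokines, 6 of 9 CC chemokines and 9 of 12 mediators were 2-fold higher. The chemokine genes Ccl8 and Ccl24 and the mediator Il18 were 2-fold lower. Over other injured macrophages the medians of these lists were -0.18, -0.19 and -0.03, so members did not stand apart from those cells here.

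Lists of metabolism and redox were also on the higher side in members. Of 21 glycolysis and hypoxia genes 12 were higher and 0 lower (median 1.10), of 21 glutathione and thioredoxin genes 11 were higher and 2 lower (median 1.07), and of 15 proton pump subunits 9 were higher and 0 lower (median 1.05). Lipid genes were higher for 12 of 20 and lower for 3 (median 1.34), with Plin2 at 991 CPM in members and 135 CPM in uninjured macrophages and Apoe at 4910.1 CPM in members and 12278 CPM in uninjured macrophages. Fabp4, which set members apart from other injured macrophages, was at 354 CPM in members and 419 CPM in uninjured macrophages. Lysosomal genes were higher for 12 of 31 and lower for 0 (median 0.55). Immediate early genes were higher for 1 of 15 and lower for 6 (median -0.50), heat shock genes lower for 3 of 12, Hspa1a, Hspa1b and Hspb1, and none higher (median 0.14), and class I genes higher for 1 of 11 and lower for 4 (median -0.80). Hspa1a and Hspa1b are near-identical copies, so the counts of each are uncertain.

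Genes of resident macrophages and class II presentation were lower in members. Of 17 resident genes 16 were 2-fold lower (median -3.08) and none higher, and Pf4 at 4929 CPM in members and 3010.1 CPM in uninjured macrophages was the exception. The complement gene C1qa was at 293 CPM in members and 4295 CPM in uninjured macrophages, 14.7-fold (13 to 16.5) lower, Sepp1 at 309.9 CPM in members and 3763 CPM in uninjured macrophages and the folate receptor gene Folr2 at 43.6 CPM in members and 895 CPM in uninjured macrophages. All 7 measured class II genes were lower (median -5.24), with H2-Ab1 at 111 CPM in members and 6487 CPM in uninjured macrophages. Retnla, a marker of alternative activation, had 0 UMIs in members and 17590.5 CPM in uninjured macrophages, at least 7133-fold lower in members with 0 read as 3 UMIs. The lectin genes Cd209f and Mgl2 also had 0 UMIs in members, and Pltp, a phospholipid carrier, was at 5.75 CPM in members and 834 CPM in uninjured macrophages, while Fxyd2 had 1 UMI in members and 379.9 CPM in uninjured macrophages.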

How the data were processed

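Cells of the tibialis anterior, in 1 injured and 1 uninjured library, were captured with droplet chemistry that counts transcript 3' ends. The deposited UMI count matrices come from Cell Ranger 2.1.1 with mm10, per the submitters' processing notes; the barcode threshold and annotation release are not stated there. The matrices hold whole-number counts, as deposited, and were not normalized. Their 28692 gene rows were summed to 28625 symbols.

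Cells were kept and gated by the limits given in the text, and each set's UMIs were added up and scaled to CPM. Ratios came with exact conditional binomial 95% intervals and shares with Clopper-Pearson intervals. For ratios, the count of the lower set was raised to 3 where it was under 3, but never past equal rates. Only genes with at least 20 UMIs over both sets were counted; the code was tested on simulated data. Because the depth per cell differed between sets, shares of cells were also taken after thinning. With 1 library per group no count model was fitted. The members and the 27 gene lists were chosen with earlier results of these data known.

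Named genes were the label's markers, list genes, and the 12 highest and 12 lowest against other injured macrophages (6 for each other comparison) among genes with at least 100 UMIs and a UMI in 20% of cells of the higher set. Doublets were scored with Scrublet; its automatic threshold marked 1 barcode per library, so no cell was removed on it. Nearest neighbours used 30 principal components of 2000 variable genes. Tools were Python 3.11.15, numpy 2.4.6, pandas 2.3.3, scipy 1.17.1, scikit-learn 1.9.0, scanpy 1.11.5 and matplotlib 3.10.9. Alternatives varied the rule's limits, the macrophage gate, depth, the UMI minimum, the floor and doubtful cells. A few genes counted in the lists are not reported here by name.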

Additional observations from a re-analysis of the deposited data

How the results depend on the processing

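The members were 5.20% of injured macrophages with the stated limits, 9.57% with limits of 5 Spp1 and 1 Gpnmb UMIs, 2.64% with limits of 20 and 4, and 6.65% with a lineage sum of 6. The 420 genes 2-fold higher than in other injured macrophages became 694 with limits of 20 and 4. They were 161 among genes with at least 100 UMIs and 1101 among all genes with a UMI. The 417 lower genes became 402 among genes with at least 100 UMIs, and 920 when low counts were raised to 1 instead of 3. Direction was checked for a set of named genes and for the lists, not for all genes called. A value here is 1 gene or list under 1 alternative. For named genes past 2-fold, 737 of 737 values kept their direction under the alternatives and 714 stayed past 2-fold. Most of these genes were named for having the largest ratios in these data. For list medians of at least 0.3 in size, 435 of 435 values kept their direction and 417 stayed at least 0.3 in size. Over other injured macrophages, the growth factor median ranged between 0.20 and 0.63 and that of dead cell clearance between 0.25 and 0.57. That of alternative activation ranged between -0.54 and -0.17. Of 17 lists with a smaller median over other injured macrophages 8 kept their sign; the CXC chemokine median ranged between -0.33 and 0.22, that of proteases and matrix between -0.02 and 0.41, class I between -0.02 and 0.24, arginine between -0.13 and 0.16, and mediators between -0.13 and 0.17. Log2 ratios near the limit ranged between 0.86 and 1.37 for Ctsd, 0.90 and 1.26 for Psap, 0.98 and 1.34 for Fth1, and 0.76 and 1.30 for Gdf15. Applied to thinned cells with its limits lowered, the rule found 142 members, 110 of them shared with the 138. The class II median was -0.81 without cells rich in class II transcripts, against -2.38 with them, and the interferon median was 0.33 without 1 member, against 0.74 with it. These alternatives, and those without the 5 members of highest Spp1 share or without cells rich in haemoglobin, were chosen after seeing the data. The uninjured macrophages held few UMIs, which limits ratios against them. No paired analysis was possible because each group is 1 library.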
